A study of Mus musculus with 2 samples.

Results

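The genes described here are those of 2 families of splicing regulators, the heterogeneous nuclear ribonucleoproteins (hnRNPs) and the serine/arginine-rich (SR) proteins, in single cells of the mouse retina. Members were the features whose symbol begins with Hnrnp, or with Srsf and a digit, which gave 31 genes, 20 hnRNP and 11 SR genes, of 32285 features. The choice used names and no measured value. Their transcripts were counted as unique molecular identifiers (UMIs), so that each captured molecule counts once, in 2 droplet libraries of sorted retinal cells. The series title concerns whether Müller cells, the radial glia that span the retina, convert to retinal ganglion cells in the living eye. Both libraries came from mice of 1 strain, with the allele Gt(ROSA)26Sortm9(CAG-tdTomato)Hze on a B6.Cg background, a reporter that makes the red fluorescent protein tdTomato once Cre recombinase has acted. The mice were 14 weeks old, and their eyes were taken 8 weeks after an adeno-associated virus (AAV) was given. Cells positive for tdTomato were sorted, at a positive rate of about 4.9% and 60000 collected cells for the test group and 10% and 120000 for the control group, and 27000 were used per library. Since 1 title reads MullerControl, that library was treated as the control and the Muller library as the test. What either virus carried, the promoter used, the source of Cre and the number of mice pooled are not given in the labels used here. With 1 library a group, no test between groups was possible, and every interval below is a 95% interval for counting error alone.

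The hnRNPs coat nascent transcripts and, as a rule, hold splice sites silent or loop out exons, while SR proteins bind exonic enhancers and recruit the spliceosome. Both families are present in most cells, and it is their balance that sets many exon choices. Many of their genes limit themselves through exons or introns that stop translation. SR proteins and the long non-coding RNA Malat1 gather in nuclear speckles, and Malat1 itself stays in the nucleus. In the retina, neurons and glia use different sets of alternative exons, and photoreceptors have a splicing programme of their own.

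Promoter windows, from 250 bases before to 50 bases after a transcription start, were available from RefSeq (GRCm38.p6) for 29 of the 31 members, in 41 windows. The GC box GGGCGG, the core motif bound by Sp-family factors, was searched on both strands, so also as CCGCCC. It was present in 34 of the 41 member windows, or 82.9%, against 35.7% of all 32851 windows of the same length. The CCAAT box, again on both strands, was in 51.2% of member windows and 37.4% of all windows, and TATAAA in 9.76% and 13.6%. At least 1 window with GGGCGG was found for every matched member but 5, Hnrnpa2b1, Hnrnpc, Hnrnpk, Hnrnpm and Srsf3. These are letter matches in one window per start and say nothing of binding. The windows of 3 genes are shown because Srsf7 and Srsf2 were among the members most raised, and Hnrnpa1 the most lowered, in the Malat1 comparison below. Capitals mark GGGCGG or its reverse complement, which matched 3 times in Srsf7, 5 times in Srsf2 and 2 times in Hnrnpa1. They lie at chr17:80207256-80207555 on the minus strand for Srsf7, at chr11:116853045-116853344 on the minus strand for Srsf2, and at chr15:103240147-103240446 on the plus strand for Hnrnpa1.
Srsf7: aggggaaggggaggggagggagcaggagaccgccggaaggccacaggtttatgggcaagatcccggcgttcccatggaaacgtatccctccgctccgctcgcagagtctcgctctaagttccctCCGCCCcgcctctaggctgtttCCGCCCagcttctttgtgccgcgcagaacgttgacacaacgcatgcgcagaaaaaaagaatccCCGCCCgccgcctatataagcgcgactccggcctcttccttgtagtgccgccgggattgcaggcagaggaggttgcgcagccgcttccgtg
Srsf2: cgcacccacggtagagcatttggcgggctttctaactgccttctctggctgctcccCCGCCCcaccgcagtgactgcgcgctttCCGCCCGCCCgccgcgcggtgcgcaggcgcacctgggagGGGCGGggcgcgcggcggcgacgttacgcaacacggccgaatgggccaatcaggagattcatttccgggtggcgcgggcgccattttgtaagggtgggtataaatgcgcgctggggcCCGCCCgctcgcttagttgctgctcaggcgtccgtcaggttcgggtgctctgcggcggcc
Hnrnpa1: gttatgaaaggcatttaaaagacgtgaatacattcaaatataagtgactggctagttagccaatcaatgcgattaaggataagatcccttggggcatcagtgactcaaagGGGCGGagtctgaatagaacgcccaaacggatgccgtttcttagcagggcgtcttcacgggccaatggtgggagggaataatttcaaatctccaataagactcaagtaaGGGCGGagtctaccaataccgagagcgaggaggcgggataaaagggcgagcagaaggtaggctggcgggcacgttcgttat

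Depth was similar, at 25622379 UMIs over 12316 barcodes for Muller (median 1478) and 23549118 over 11309 for MullerControl (median 1552). The libraries shared 40 barcode sequences. After filters and doublet removal 10757 and 9538 barcodes were kept and gated on marker genes that are not members. Müller barcodes numbered 1147 and 657 (10.7% and 6.89% of those kept), rod barcodes 4430 and 6466, cone barcodes 361 and 854, bipolar barcodes 3047 and 903, amacrine barcodes 560 and 105, and microglia or macrophage barcodes 100 and 155. The rest carried markers of more than 1 class or of none. The class makeup of the sort therefore differed between the libraries before any gene was compared. The markers of each class were highest in their own class in both libraries, except 1 of 10 amacrine markers in MullerControl, an order that the gate itself largely sets and that is no check of it. The Müller barcodes, with summed UMIs of 2100694 and 1735149, had 33322 and 43134 counts per 1000000 UMIs (CPM) of Müller markers and also 7500 and 5100 CPM of rod markers. No gate for retinal ganglion cells was made, and their markers summed to 40.5 and 44.4 CPM in Müller barcodes.

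Splicing factor transcripts were in nearly every barcode. The 31 members together took 204734 UMIs, or 7990 CPM, of the Muller library and 184531 UMIs, or 7836 CPM, of the MullerControl library, and 99.6% and 99.2% of barcodes held at least 1 such UMI. Because that share follows depth, barcodes were also thinned to 1000 UMIs, which left out 457 and 212 Müller barcodes. At that depth, 690 of 690 Müller barcodes (exact binomial interval 99.5% to 100%) and 443 of 445 (99.6%, 98.4% to 99.9%) held a member UMI, against 98.95% and 98.3% without thinning. The median Müller barcode then held UMIs of 6 different members in either library, the median bipolar barcode 7, and the median microglia or macrophage barcode 4 and 5.

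In Müller barcodes the hnRNP genes summed to 5441 CPM (5342 to 5542) for Muller and 5263 CPM (5156 to 5372) for MullerControl, and the SR genes to 2009 CPM (1949 to 2071) and 2020 CPM (1954 to 2088). UMIs were tagged at the 3′ end and are not scaled by length, so levels of different genes are molecules captured and not molecules present. Hnrnpa2b1, an A/B-type hnRNP of the core particle on nascent RNA (chr6:51460932-51469894, minus strand), led in both libraries, at 1362 CPM (1313 to 1413) and 1118 CPM (1069 to 1169). Next came Hnrnpk, which binds cytosine-rich RNA through KH domains, at 570 and 624 CPM. Hnrnpdl, a paralogue of the mRNA decay factor Hnrnpd, stood at 557 and 515 CPM, and Hnrnpu, a chromatin-bound scaffold protein that also holds Xist on the inactive X, at 434 and 396 CPM. The leading SR genes were Srsf5, at 312 and 385 CPM, and Srsf3, the smallest SR protein, which helps export mRNA, at 267 and 322 CPM. At the other end, Srsf12, a relative of the splicing repressor Srsf10, had 8 and 3 UMIs in all Müller barcodes. Processed pseudogenes near-identical to some of these genes, Hnrnpa1 among them, can take or lose reads, and how multi-mapped reads were handled is not given in the sources used here.

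Bipolar barcodes held the highest summed level of members and microglia or macrophage barcodes the lowest. The sums were 8502 CPM (8442 to 8562) and 8550 CPM (8451 to 8649) in bipolar barcodes of the Muller and MullerControl libraries, against 5237 CPM (5008 to 5473) and 5127 CPM (4969 to 5289) in microglia or macrophage barcodes. The other 4 classes lay between, with Müller barcodes at 7450 and 7283 CPM, rods at 7915 and 8012 CPM, cones at 7818 and 8007 CPM, and amacrine barcodes at 7403 and 8238 CPM. Of the 31 members, 22 were lowest in microglia or macrophage barcodes in the Muller library and 23 in MullerControl, 21 of them the same genes. The highest class varied more. In both libraries 6 members were highest in rods, 6 in amacrine barcodes, 5 in bipolar barcodes, 3 in cones, 2 in Müller barcodes and 1 in microglia or macrophage barcodes. The shares of all features lowest or highest in each class were not computed. These counts therefore do not show whether the order is particular to the members. With all UMIs in the totals, amacrine barcodes were level with Müller barcodes in the Muller library and with rods in MullerControl, where their interval of 7973 to 8510 CPM held the rods. Without Malat1 and mitochondrial UMIs, bipolar barcodes stayed highest and microglia or macrophage barcodes lowest, but the order between them changed. Müller barcodes then stood at 9001 and 8432 CPM, rods at 8661 and 8740 CPM, cones at 8715 and 8964 CPM and amacrine barcodes at 8846.5 and 9362 CPM.

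**Figure D1:**
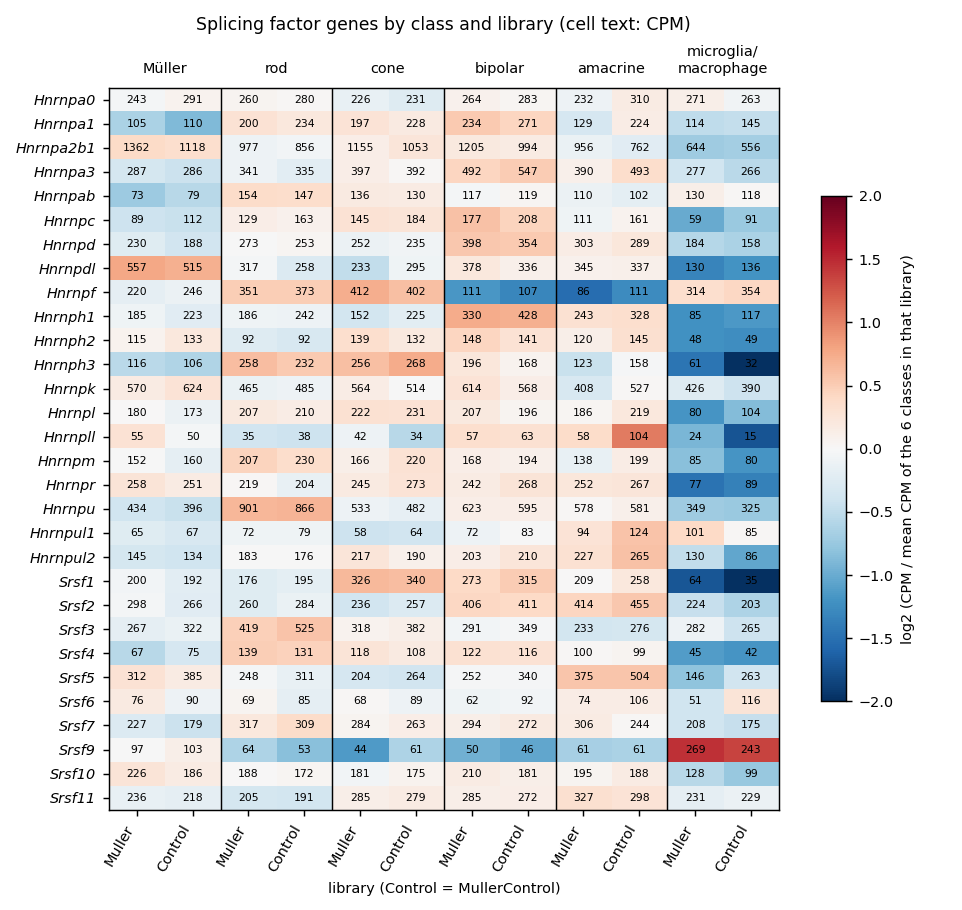
Level of 30 members (rows) in 6 marker-gated classes of both libraries (columns). Numbers are CPM of the summed UMIs of the class, and colour is the log2 of that level over the mean of the 6 classes in the same library. The microglia or macrophage columns are mostly blue, with Srsf9 the reddest cells, and Hnrnpf is low in bipolar and amacrine columns. Srsf12 is left out because 1 class had no UMI of it.

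Hnrnpf, which binds runs of guanines and opposes or helps exon use by position, separated photoreceptors from inner neurons. It stood at 351 CPM (335 to 368) and 373 CPM (360 to 385) in rods and at 412 CPM (373 to 453) and 402 CPM (380 to 425) in cones. In bipolar barcodes it stood at 111 CPM (105 to 118) and 107 CPM (96.4 to 119), and in amacrine barcodes at 86.2 and 111 CPM. Müller barcodes were between, at 220 and 246 CPM, with intervals apart from both sides. Its relative Hnrnph1 went the other way between these classes, at 330 and 428 CPM in bipolar barcodes against 186 and 242 CPM in rods and 185 and 223 CPM in Müller barcodes. Hnrnph3, a shorter member of the same subfamily, had 258 CPM (245 to 272) and 232 CPM (223 to 242) in rods. It had 256 and 268 CPM in cones and 116 CPM (102 to 132) and 106 CPM (91.3 to 123) in Müller barcodes. Microglia or macrophage barcodes had 61.2 and 32.1 CPM. Hnrnph2 was highest in bipolar barcodes of the Muller library, at 148 CPM, and in amacrine barcodes of MullerControl, at 145 CPM. So the F/H subfamily did not share 1 class pattern, though Hnrnph3, like Hnrnpf, was higher in rods and cones than in Müller barcodes.

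Srsf9, a small SR protein, had the inverse of the family's usual order. It was highest in microglia or macrophage barcodes, at 269 CPM (219 to 327) and 243 CPM (209 to 280), next in Müller barcodes, at 96.6 CPM (83.8 to 111) and 103 CPM (88.6 to 119), and lay between 44.2 and 63.5 CPM in the 4 neuronal classes of either library. The founding SR protein gene Srsf1 showed the opposite, with 326 CPM (292 to 363) and 340 CPM (320 to 362) in cones, 200 and 192 CPM in Müller barcodes and 63.9 CPM (40.9 to 95) and 34.7 CPM (22.8 to 50.4) in microglia or macrophage barcodes. Hnrnpu was highest in rods, at 901 CPM (876 to 927) and 866 CPM (848 to 885), and at 434 and 396 CPM in Müller barcodes its level there was below that of every neuronal class in both libraries. Hnrnpdl was highest in Müller barcodes, at 557 CPM (525 to 590) and 515 CPM (481 to 550), against 378 and 336 CPM in bipolar barcodes, 317 and 258 CPM in rods and 130 and 136 CPM in microglia or macrophage barcodes. Hnrnpll, known for exon choice in Ptprc in lymphocytes, was not high in microglia or macrophage barcodes, where it had only 9 and 12 UMIs, or 23.9 and 15.4 CPM, against 55.2 and 49.6 CPM in Müller barcodes.

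Srsf12 was concentrated in inner neurons. It was found in 5.15% and 7.64% of bipolar barcodes and in 6.25% and 15.2% of amacrine barcodes, against 0.271% and 0.0309% of rods, whose median depth was 953.5 and 1355 UMIs against 2868 and 3566 in bipolar and 2729 and 4043 in amacrine barcodes. Its level was 19.3 CPM (16.5 to 22.3) and 21.9 CPM (17.2 to 27.5) in bipolar and at 19.7 CPM (14 to 27.1) and 43 CPM (25.9 to 67.1) in amacrine barcodes. Rods had 2.49 and 0.21 CPM, Müller barcodes 3.81 and 1.73 CPM and cones 6.88 and 4.88 CPM. No Srsf12 UMI fell in microglia or macrophage barcodes, which allows up to 7.98 and 3.85 CPM.

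Müller barcodes were also set directly against rod, bipolar and cone barcodes, with the members lower in Müller barcodes outnumbering those higher each time, except for 5 and 5 against rods of the Muller library without Malat1 and mitochondrial UMIs. Against rods, 4 members of 31 tested were at least 1.5-fold higher and 7 lower in the Muller library, where 35.9% and 23.7% of all features were called higher and lower. In the MullerControl library 2 and 8 of 30 were, where features gave 38.6% and 25%. Hnrnpdl and Srsf9 were higher, and Hnrnpu, Srsf4, Hnrnpf, Hnrnph3, Hnrnpab, Hnrnpa1 and Srsf3 lower, in both. Against bipolar barcodes 2 members were higher and 9 lower of 31 in the Muller library (28.5% and 28.3% of features) and 3 and 14 in MullerControl (27.5% and 29.9%). Without Malat1 and mitochondrial UMIs in the totals, the 14 lower became 9 of 31 (28.1% of features). Against cones 3 were higher and 8 lower of 30 (32.3% and 27% of features), and 2 and 6 (31.2% and 29.1%). As a description, the share of members higher in Müller barcodes was below that of features in all 6 comparisons, and the share lower was near or below it, except against bipolar barcodes in MullerControl with all UMIs in the totals.

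Between the libraries, no member differed by 1.5-fold in Müller barcodes. Of 30 members with at least 20 UMIs, 0 were at least 1.5-fold higher and 0 lower in the Muller library, where 7.36% and 6.08% of 11117 features were. The median log2 ratio of members, Muller over MullerControl, was -0.02 and that of features -0.03, with members from -0.34 to 0.34. The highest was Srsf7, which like Srsf3 links splicing to mRNA export, at 227 and 179 CPM (log2 ratio 0.34, 0.13 to 0.55). Hnrnpd, an mRNA decay factor, stood at 230 and 188 CPM (0.29, 0.09 to 0.50), Hnrnpa2b1 at 1362 and 1118 CPM (0.28, 0.20 to 0.37) and Srsf10 at 226 and 186 CPM (0.28, 0.07 to 0.49). The lowest was Hnrnpc, which binds uridine tracts, at 88.5 and 112 CPM (-0.34, -0.64 to -0.05). Srsf5 stood at -0.30 (-0.46 to -0.14), Hnrnph1 at -0.27 (-0.48 to -0.07) and Srsf3 at -0.27 (-0.44 to -0.10). These 8 intervals leave out 0 for counting error, but with 1 library a group none of these ratios can be told apart from the spread between libraries. Without Malat1 and mitochondrial UMIs in the totals, Hnrnpc was at -0.28 (-0.58 to 0.01), whose interval holds 0. The others of the 8 still left out 0 there.

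**Figure D2:**
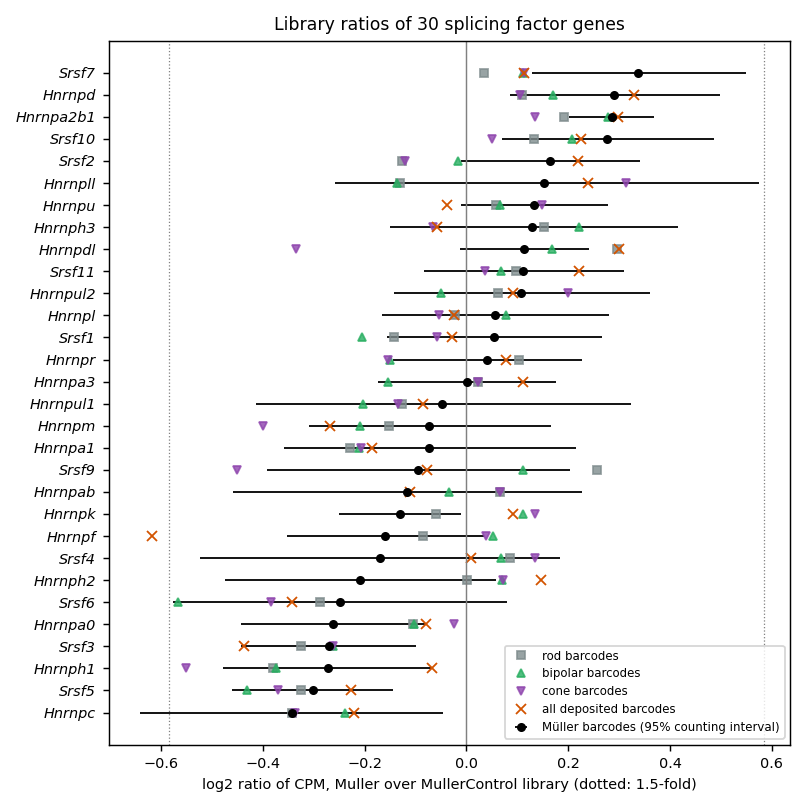
Log2 ratio of CPM, Muller over MullerControl library, for 30 members (rows, ordered by the ratio in Müller barcodes). Black points with bars are Müller barcodes with 95% counting intervals, coloured symbols are rod, bipolar and cone barcodes and crosses are all deposited barcodes. No black point passes the dotted lines at 1.5-fold, while the cross of Hnrnpf lies at -0.62, away from its class values.

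Several of the members at the ends of that order stood on the same side in other classes, all of which were read from the same 2 libraries. Hnrnpa2b1 had log2 ratios of 0.19 in rods, 0.13 in cones, 0.28 in bipolar, 0.32 in amacrine and 0.21 in microglia or macrophage barcodes. Srsf5 had -0.33, -0.37, -0.43, -0.43 and -0.83 in the same order, and Hnrnph1 -0.38, -0.55, -0.37, -0.44 and -0.43. Srsf7, in contrast, stood at 0.03 in rods and 0.11 in cones and bipolar barcodes, below its 0.34 in Müller barcodes. For Srsf5 and Hnrnph1 each of these classes lay farther from 0 than Müller barcodes, and for Hnrnpa2b1 amacrine barcodes did.

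Over all deposited barcodes, Hnrnpf and Srsf3 had ratios unlike those within classes, and Srsf12 had a ratio unlike those in some classes. The libraries also held the classes in different numbers, and the part of that in these ratios was not tested. Hnrnpf had 191 and 294 CPM over all deposited barcodes, a log2 ratio of -0.62, but within the 6 classes its ratio lay between -0.38 and 0.05. Srsf12 had 13.8 and 6.5 CPM, a ratio of 1.08, but -0.20 (-0.59 to 0.23) in bipolar and -1.16 (-1.95 to -0.25) in amacrine barcodes, the classes with its highest levels. In classes with few UMIs of Srsf12 its ratio was above 0. It was 3.09 in rods (13 and 2 UMIs), 0.89 in Müller barcodes (8 and 3) and 0.60 in cones (7 and 15). Srsf3 had 311 and 420 CPM, a ratio of -0.44, and stood between -0.32 and 0.10 within classes. For Hnrnpf and Srsf3 the ratio over all barcodes was farther from 0 than in any of the 6 classes.

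Outside Müller barcodes, few members passed 1.5-fold. Rods and bipolar barcodes had 0 members higher and 0 lower, where 14.5% and 2.27% of features were in rods and 4.32% and 7.3% in bipolar barcodes. Cones had 1 higher, Srsf12 with 7 and 15 UMIs, and 0 lower (6.94% and 7.38% of features). Amacrine barcodes had 0 higher and 3 lower of 31 (8.83% and 16.2% of features), which were Srsf12, Hnrnpll at 58.2 and 104 CPM (-0.86, -1.35 to -0.31) and Hnrnpa1 at 129 and 224 CPM (-0.80, -1.13 to -0.44). The median there was -0.29 for members and -0.12 for features. Some amacrine markers differed between the libraries, with C1ql1 at 909 and 181 CPM and the glycine transporter gene Slc6a9 at 379 and 993 CPM. Gad1 stood at 689 and 400 CPM, while Gad2 was closer, at 312 and 344 CPM. The part of amacrine makeup in the amacrine ratios was not tested. Microglia or macrophage barcodes, with the fewest UMIs, had 4 higher, Hnrnph3, Srsf1, Hnrnpll and Hnrnpul2, and 3 lower, Srsf6, Srsf5 and Hnrnpc, of 30 (11.8% and 8.44% of features).

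Müller barcodes fell into 2 sets by their share of Malat1, with little between. A share of at least 5% of UMIs was called Malat1-rich, which gave 697 rich and 450 poor barcodes in the Muller library and 374 and 283 in MullerControl, with only 5 and 10 barcodes between 4% and 6%. Rich barcodes were also deeper, with medians of 2128 against 656.5 UMIs and 4279.5 against 851 UMIs. At least 2000 UMIs were present in only 11 and 14 of the Malat1-poor barcodes. Poor barcodes held more mitochondrial UMIs, at medians of 2.83% against 0.91% and 4.75% against 0.84%, and more rod markers, at 16983 against 5577 CPM and 11586 against 3841 CPM. Müller markers differed less, at 33570 CPM in rich and 32097 CPM in poor barcodes of the Muller library and 44396 and 36631 CPM in MullerControl. The part of depth, mitochondrial share and rod RNA in the results of this split was not tested.

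**Figure D3:**
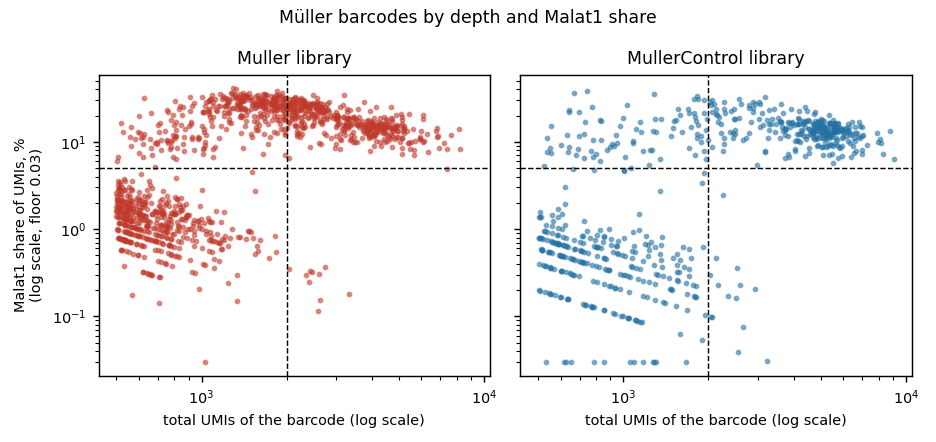
Each point is 1 Müller barcode, by its total UMIs and its Malat1 share in percent, both on log scales, in the Muller (left) and MullerControl (right) library. Dashed lines mark 5% Malat1 and 2000 UMIs. Few points lie near the Malat1 line, and the lower right field holds only 11 and 14 barcodes.

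SR genes as a sum were higher in Malat1-rich Müller barcodes, and hnRNP genes less so, by an amount that depends on the totals used. SR genes summed to 2104 CPM in rich and 1544 CPM in poor barcodes of the Muller library and to 2156 and 1319 CPM in MullerControl. The hnRNP genes summed to 5464 and 5327 CPM and to 5406 and 4524 CPM. Without Malat1 and mitochondrial UMIs in the totals, SR genes summed to 2618 and 1631 CPM and to 2536 and 1413 CPM. The hnRNP genes then summed to 6800 and 5628 CPM and to 6359 and 4846 CPM. The median log2 ratio of members, rich over poor, was 0.08 and 0.16, against 0.02 and 0.28 for all features. Of 30 members, 7 were at least 1.5-fold higher and 4 lower in the Muller library, where 29.9% and 27.4% of features were, and 11 and 4 in MullerControl, where 38.3% and 20.4% were. Shares of members called were therefore near or below those of features, and the families are described by which members stood on which side. When Malat1 and mitochondrial UMIs were left out of the totals, the medians moved to 0.32 and 0.29 for members and 0.26 and 0.42 for features, and the counts to 11 higher and 3 lower in both libraries (37.8% and 19.1% of features in the Muller library, 43.3% and 16.7% in MullerControl).

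By the mean ratio of the 2 libraries, the 4 members most raised in Malat1-rich barcodes were SR genes, although single libraries differ in order. In the Muller library Hnrnpdl, at 0.98, stood above Srsf1 and Srsf5, and in MullerControl Hnrnph1, at 1.32, Srsf6, at 1.24, and Hnrnpa2b1, at 1.14, stood above Srsf2. Srsf7 had 253 CPM (229 to 277) in rich and 98.8 CPM (68.8 to 137) in poor barcodes of the Muller library and 202 CPM (179 to 226) and 63.8 CPM (37.8 to 101) in MullerControl, log2 ratios of 1.32 and 1.59. Srsf1 had 218 and 110 CPM, then 217 and 67.4 CPM, ratios of 0.95 (0.51 to 1.5) and 1.62 (1.02 to 2.44). Srsf5 had 340 and 175 CPM, then 432 and 142 CPM, ratios of 0.94 and 1.57. Srsf2, a speckle marker protein, had 328 and 155 CPM, then 292 and 135 CPM, ratios of 1.05 and 1.08. In each of the 4 the intervals of rich and poor levels were apart in both libraries. With the limit at 10% Malat1 in place of 5%, the ratio of Srsf1 in MullerControl fell under 1.5-fold, at 0.54, and that of Srsf5 was 0.76. Among hnRNP genes, Hnrnpdl, at 608 and 305 CPM and then 563 and 266 CPM, and Hnrnpa2b1, at 1461 and 875 CPM and then 1228 and 553 CPM, were also past 1.5-fold in both libraries. These 6 genes were the members called higher in both.

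Not all SR genes stood on that side. Srsf9 had 91.6 and 121 CPM in rich and poor barcodes of the Muller library and 92.2 and 160 CPM in MullerControl, ratios of -0.43 and -0.81. Srsf4 had 63 and 87.5 CPM, then 71.6 and 95.7 CPM, with intervals that held 0 in both. Srsf3 had 251 and 347 CPM, then 315 and 358 CPM, ratios of -0.48 (-0.76 to -0.17) and -0.20 (-0.50 to 0.14). By the mean of the libraries the lowest of the 30 members tested were 2 hnRNP genes, the splice-site repressor Hnrnpa1, at 83.6 and 209 CPM and then 97 and 177 CPM (ratios of -1.33, -1.73 to -0.90, and -0.89, -1.34 to -0.37), and Hnrnpc, at 77.9 and 141 CPM and then 104 and 156 CPM (-0.88 and -0.61). Hnrnpc was not second lowest in either library, where Hnrnpab stood below it in Muller and Srsf9 and Hnrnpul2 in MullerControl. Hnrnpa1 and Hnrnpc were the members called lower in both libraries, though Hnrnpc in MullerControl was at -0.42 with the limit at 2% and -0.47 without Malat1 and mitochondrial UMIs, both under 1.5-fold. Hnrnpab and Hnrnpul2 differed between the libraries, with ratios of -1.01 and 0.21 for Hnrnpab and 0.12 and -0.76 for Hnrnpul2.

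**Figure D4:**
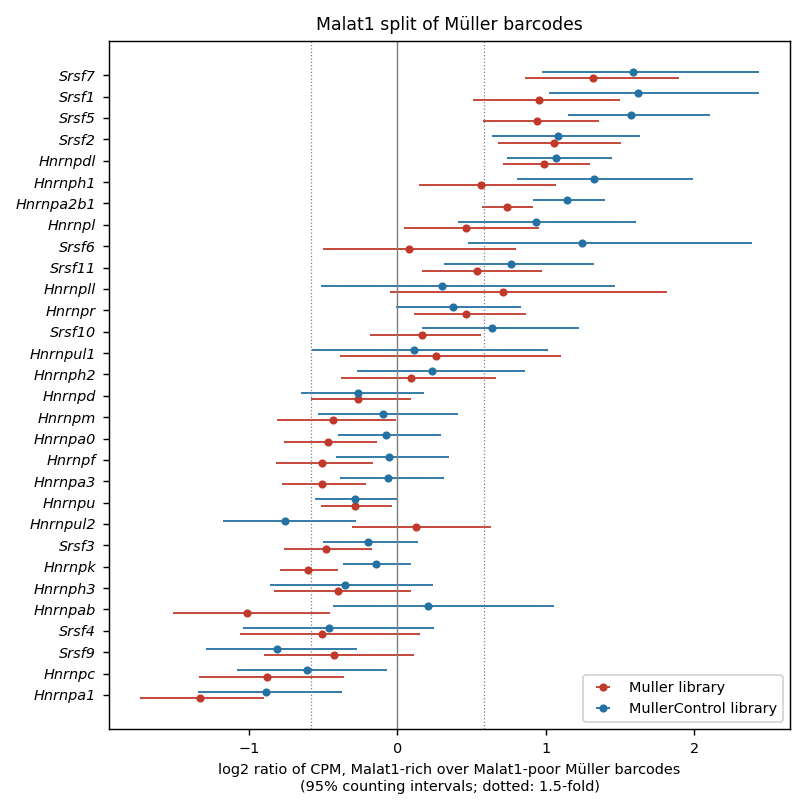
Log2 ratio of CPM, Malat1-rich over Malat1-poor Müller barcodes, for 30 members (rows, ordered by the mean of the libraries), with 95% counting intervals. Srsf7, Srsf1, Srsf5 and Srsf2 head the order, and Hnrnpa1, Hnrnpc, Srsf9 and Srsf4 end it. Dotted lines mark 1.5-fold.

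Held to shallow barcodes, where rich and poor are closer in depth (medians of 1373 and 649 UMIs, and 1094.5 and 808), more members passed 1.5-fold. Müller markers were farther apart there than over all depths, at 18109 CPM in rich and 30886 CPM in poor barcodes of the Muller library. In MullerControl they stood at 25512 and 36243 CPM. Rod markers were closer than over all depths, at 10155 and 18276 CPM and then 8277 and 11564 CPM. Amacrine markers stood at 609 and 370 CPM and then 789 and 153 CPM. The part of these in the shallow ratios was not tested. In the Muller library 11 of 30 members were higher and 9 lower (32.7% and 36.2% of features), and in MullerControl 12 and 7 of 29 (34.3% and 40.3%). Over all depths the features gave 29.9% and 27.4% in the Muller library and 38.3% and 20.4% in MullerControl. Their shares thus also rose, except the share higher in MullerControl, and the rise was not particular to members. The highest were Srsf1 in the Muller library, at 1.45 (0.93 to 2.06), and Srsf6 in MullerControl, at 2.41 (1.31 to 3.81), where Srsf1 stood at 2.07. Srsf6 was at 0.60 (-0.15 to 1.46) in the Muller library. The lowest were Hnrnpk in the Muller library and Srsf9 in MullerControl, at -2.15 (-4.87 to -0.89) with 3 UMIs in rich barcodes. Hnrnpa1 was second lowest in both, at -1.67 and -1.51. Hnrnpk, at -0.60 and -0.15 over all depths, stood at -1.72 (-2.08 to -1.39) and -1.0 (-1.62 to -0.49) among shallow barcodes. Its levels there were 240 against 797 CPM and 321 against 657 CPM, so it was lower in rich barcodes of both libraries by more than at all depths. Malat1-rich shallow barcodes of the MullerControl library numbered 86, with 793 member UMIs in all.

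The same split in rods, cones and bipolar barcodes gave a like order of members. Rich barcodes made up 57% and 49.4% of rods, 56.2% and 63.5% of cones, and 61.4% and 47.1% of bipolar barcodes. Over 8 comparisons, 4 classes in 2 libraries, 13 of the 30 members tested were above 0 in all 8 and 3 were below 0 in all 8, Hnrnpa1, Hnrnpk and Srsf3. Against the median of all features in each comparison, 6 members were above in all 8 and 10 below in all 8. Those above were Srsf1, Srsf5, Srsf6, Hnrnph1, Hnrnpa2b1 and Hnrnpr. Those below were Hnrnpa0, Hnrnpa1, Hnrnpab, Hnrnpc, Hnrnpd, Hnrnpf, Hnrnpk, Srsf3, Srsf4 and Srsf9. The median of features was itself above 0 in all 8, from 0.02 in Müller barcodes of the Muller library to 0.69 in rods of MullerControl. The shares of all features that meet these limits in all 8 were not computed, so the counts have no background. Member ratios had a narrower range in bipolar barcodes, from -0.50 to 0.49 and from -0.73 to 0.70. In Müller barcodes they ran from -1.33 to 1.32 and from -0.89 to 1.62. Srsf7 had 0.14 and 0.29 in bipolar barcodes against 1.32 and 1.59 in Müller barcodes, and Srsf1 0.37 and 0.70. Not every member was closer to 0 there, as Hnrnpul1 had 0.47 and 0.24 against 0.26 and 0.11 in Müller barcodes. In rods Srsf2 reached 1.94 and 2.25, above its 1.05 and 1.08 in Müller barcodes. Across the 30 members, Spearman's rho between pairs of these comparisons ran from 0.68 to 0.92 with a median of 0.80 over 28 pairs, and was 0.78 between the libraries in Müller barcodes. That is a description across genes, which are not replicates, and classes of 1 library share that library's free RNA and depth. The members' mean ratio in Müller barcodes had a rho of 0.26 with the percentage of a gene's annotated transcripts that retain an intron and of -0.23 with the length of the gene (GENCODE M21, GRCm38).

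**Figure D5:**
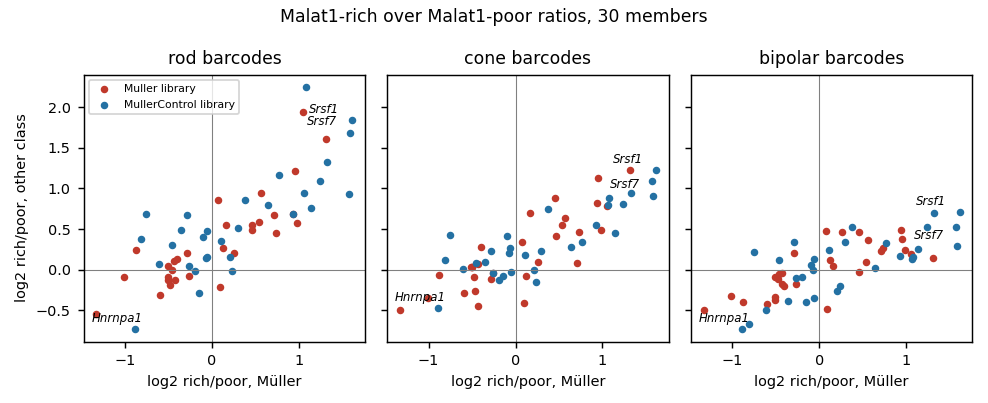
Log2 ratio, Malat1-rich over Malat1-poor, in Müller barcodes (horizontal axis) and in rod, cone and bipolar barcodes (vertical axis) for 30 members in both libraries. Points climb from Hnrnpa1 at lower left to Srsf1 at upper right in all 3 panels, less steeply in bipolar barcodes. Labels stand beside the MullerControl points of 3 genes.

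Genes that work with these families were split by Malat1 in different ways. The shares of all features in this split were the 29.9% higher and 27.4% lower of the Muller library and the 38.3% and 20.4% of MullerControl. Of 16 SR-related and SR-like factors, 12 were at least 1.5-fold higher and 0 lower in rich Müller barcodes of the Muller library, and 11 and 0 in MullerControl, with medians of 0.85 and 0.88. Among them Tra2a, a partner of SR proteins at exonic enhancers, had 270 against 59.3 CPM and 249 against 42.5 CPM, Pnisr 586 against 113 CPM and 616 against 110 CPM, and the speckle protein gene Son 755 against 305 CPM and 713 against 252 CPM. Of the SR protein kinases and import receptors, 9 of 10 were tested, and 4 and 6 were higher and 0 lower in the libraries. The kinase gene Clk1, which phosphorylates SR proteins, had 160 against 48 CPM and 160 against 39 CPM.

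Of 12 hnRNP family genes without the Hnrnp prefix, 5 were higher and 4 lower in the Muller library and 3 and 3 in MullerControl. Among the lower genes, the poly(C)-binding protein gene Pcbp2 had 175 against 336 CPM and 207 against 408 CPM. Of 18 core spliceosome proteins, 2 were higher and 10 lower in the Muller library and 4 and 7 in MullerControl. Without Malat1 and mitochondrial UMIs the counts were 4 and 10 and then 5 and 6. The U1 protein gene Snrnp70 had 470 against 150 CPM and 461 against 92.2 CPM, and the small Sm protein gene Snrpe 51 against 198 CPM and 74.3 against 152 CPM. All 10 ribosomal protein genes of the reference list and all 8 mitochondrially encoded genes were lower in rich barcodes of both libraries. Nuclear-retained RNAs, 7 of 8 tested with Malat1, which defined the split, among them, were higher for 6 and 7 and lower for 0.

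Between the libraries, few genes of these lists passed 1.5-fold in Müller barcodes, where 7.36% of features were higher and 6.08% lower. None of the 12 hnRNP family genes, 16 SR-related factors or 9 tested kinases and import receptors passed 1.5-fold in either direction, and of the 18 core spliceosome genes 1 did, Snrpf at a log2 ratio of -0.60, which was under 1.5-fold without Malat1 and mitochondrial UMIs. All 10 ribosomal protein genes were below 0, with a median of -0.37, and 1 passed 1.5-fold, Rplp1 at -0.70. In the nuclear-retained list, Xist had a ratio of 1.59 and Snhg11 of 2.71, the 2 called higher. Xist is made from the inactive X of females, and the sex of the mice is not given in the labels used here. Its part in the ratios above was not tested.

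The libraries were also compared within each Malat1 set of Müller barcodes, and no difference between the sets was tested. Among Malat1-rich barcodes alone, 0 of 30 members passed 1.5-fold (6.36% of features higher and 7.4% lower), with a median of -0.02. Among Malat1-poor barcodes alone the median was 0.20, against 0.10 for features, and 6 were higher and 1 lower, where 18.8% and 9.66% of features were. Those higher were Hnrnpab, Srsf6, Srsf10, Srsf1, Hnrnpa2b1 and Srsf7, and the 1 lower was Hnrnpul2. The share of members higher was thus near that of features. Of these, Hnrnpa2b1 had 310 and 156 UMIs, or 875 and 553 CPM (0.66, 0.38 to 0.95), and Srsf1 39 and 19 UMIs (0.67, -0.12 to 1.58). The summed level of members in poor barcodes was 6871 CPM (6601 to 7150) and 5843 CPM (5564 to 6132), while in rich barcodes it was 7568 CPM (7439 to 7698) and 7562 CPM (7422 to 7705). Poor barcodes of the libraries also differed in median mitochondrial share, 2.83% against 4.75%, and in rod marker level, 16983 against 11586 CPM, whose part in this was not tested. Split further by depth, deep rich barcodes had 0 members past 1.5-fold (5.78% and 7.48% of features). Shallow rich barcodes had 2 higher, Srsf7 and Srsf9, and 3 lower, Srsf6, Srsf5 and Hnrnpa0, of 30 (14.4% and 26.8% of features), and shallow poor barcodes 5 higher and 1 lower of 29 (18.4% and 11.1%). Srsf6 was at -1.05 (-1.80 to -0.19) in shallow rich and 0.76 (-0.34 to 2.16) in shallow poor barcodes, with 43 and 21 and then 21 and 9 UMIs.

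Müller barcodes were also split by depth, a split that overlaps the one by Malat1. Barcodes of at least 2000 UMIs numbered 389 and 302 and those below 758 and 355, with 107 and 38 between 1800 and 2200 UMIs. The median log2 ratio of members, deep over shallow, was -0.06 and 0.16, against -0.01 and 0.08 for features. In the Muller library 0 of 30 members were higher and 1, Hnrnpa1, lower (13.1% and 13.4% of features), and in MullerControl 3 were higher, Srsf7, Srsf2 and Hnrnpa2b1, and 2 lower, Hnrnpa1 and Hnrnpul2 (23% and 16.8%). Hnrnpa1 was the 1 member past the limit in both, at 88.6 CPM in deep and 134 CPM in shallow barcodes and at 99.7 and 151 CPM. Hnrnpul2 had 113 and 217 CPM in MullerControl but 147 and 141 CPM in the Muller library. Srsf7 had 204 CPM (181 to 230) and 79.8 CPM (53 to 115) in MullerControl and 245 CPM (219 to 273) and 193 CPM (163 to 227) in the Muller library. Nearly all deep barcodes were Malat1-rich, and the depth ratios changed when Malat1-poor barcodes were left out. Within Malat1-rich barcodes alone, 4 members of 30 were higher in deep barcodes and 3 lower in the Muller library (22.1% and 19.7% of features) and 5 and 4 in MullerControl (23% and 35.6%). Higher in both were Hnrnpk, at 1.35 and 0.94, Hnrnpf, at 0.97 and 0.80, and Srsf9, at 0.69 and 1.33. The 1.33 of Srsf9 (0.15 to 4.03) rests on 3 UMIs in shallow barcodes. Lower in both were Srsf1, at -0.68 and -0.61, and Srsf5, at -0.65 and -0.85. The -0.61 of Srsf1 (-1.10 to 0.003), with 32 UMIs in shallow barcodes, had an interval that held 0. The members named by depth over all Müller barcodes did not keep those ratios. Hnrnpa1 stood at 0.34 (-0.22 to 1.02) and 0.56 (-0.38 to 2.25), with 29 and 6 UMIs in shallow barcodes. Srsf7 stood at -0.07 and 0.61, Srsf2 at -0.16 and 0.11, and Hnrnpa2b1 at -0.23 and -0.19. Of these ratios, only that of Hnrnpa2b1 in the Muller library had an interval that left out 0.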

How the data were processed

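Single-cell RNA counts of sorted tdTomato-positive mouse retinal cells were read from 2 droplet libraries, 1 per group. Deposited values are raw counts (UMIs of a gene in a barcode), and per the file headers Cell Ranger 4.0.0 wrote them. Per the submitters' processing notes, Seurat 4.0.5 and the builds mm10 and GRCh38 were also used, with no role given. Per the labels' protocol, the 3′ kit is named as v3.1 in 1 place and v2 in another. No deposited barcode had fewer than 500 UMIs. The members and lists, and the Malat1 and depth limits, were chosen with earlier results of these data known.

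Barcodes under 300 genes or over 20% mitochondrial UMIs were left out (429 and 905). Scrublet in scanpy 1.11.5 scored doublets. Its automatic threshold called 2 and 0, which was taken as failed, so the top scores were removed at 0.8% per 1000 barcodes (1130 and 866). Classes came from a gate whose limits were set after seeing the data. Shares of UMIs, without Malat1 and mitochondrial genes, of at least 1% Müller, 1% cone, 0.6% bipolar, 0.2% amacrine or 1% microglia or macrophage markers, with at least 3 markers, named a barcode when 1 class passed and rod markers were under 6%. Rods needed 3% rod markers and no other class.

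UMIs were summed per class and library as CPM with exact Poisson intervals. Log2 ratios had 1 count added and exact conditional intervals. These were run on simulated Poisson counts, for which such intervals are made, so spread beyond counting error was not simulated. A feature was tested with at least 20 UMIs over both sides and called at 1.5-fold or more. Intervals (95%) and the floor of 3 counts for a count of 0 cover counting error only. Shares have Clopper-Pearson intervals. Every member could be named. Full values went to the 6 members highest in Müller barcodes, the 4 highest and 4 lowest (at least 100 UMIs) between libraries, the same number of each for the Malat1 and depth splits, and the 6 with the widest range over classes. Srsf12 and others outside this were chosen after their values were seen. Alternatives changed the denominator, scaling, added count, minimum, fold, doublets, gate, mitochondrial limit, cuts and thinning. Python 3.11.15, numpy 2.4.6, scipy 1.17.1 and pandas 2.3.3 were used.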

Additional observations from a re-analysis of the deposited data

Results flagged for a closer look

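Hnrnpk stood on opposite sides of 0 in the library comparison of 2 classes. Its log2 ratio, Muller over MullerControl, was -0.13 (-0.25 to -0.01) in Müller barcodes, at 570 and 624 CPM, and 0.11 (0.04 to 0.19) in bipolar barcodes, at 614 and 568 CPM. The counting intervals leave out 0 on either side. Without Malat1 and mitochondrial UMIs in the totals, the ratio in Müller barcodes was -0.07 (-0.19 to 0.05), whose interval holds 0, and that in bipolar barcodes stayed at 0.11. The difference between the classes was not tested, since each group had 1 library. Both ratios were under 1.5-fold.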

How the results depend on the processing

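No paired analysis was possible because each group had 1 library. In Müller barcodes the median library ratio of members (-0.02) lay between -0.03 and 0.04 under the other denominators, scalings, added counts, minimums, gates, doublet and mitochondrial limits, and the count past 1.5-fold stayed 0 in those run for it. Strata added after seeing the data went further, with medians of 0.20 in Malat1-poor, 0.28 in shallow poor, -0.11 in shallow rich and -0.08 in deep rich barcodes alone and 7, 6, 5 and 0 members past 1.5-fold. For the Malat1 split the median ran from -0.12 to 0.32 in the Muller library. In the MullerControl library it was -0.23 among deep barcodes alone, 0.34 among shallow barcodes alone and 0.29 without Malat1 and mitochondrial UMIs, against 0.16. Malat1-poor deep barcodes held only 203 and 210 member UMIs, and feature medians there were -0.63 and -0.45. The summed level in bipolar over microglia or macrophage barcodes, 1.62 and 1.67, was 1.76 and 1.81 without Malat1 and mitochondrial UMIs, and 1.59 with doubled gate limits in MullerControl. The share of Müller barcodes with a member UMI was 95.7% and 95.3% at 500 UMIs and 98.95% and 98.3% unthinned. Of 330 recomputed single-gene ratios, 310 stayed within the counting interval of the reported value. The 4 that turned were the depth ratios of Hnrnpa1 (0.34 and 0.56), of Srsf7 in Muller (-0.073) and of Hnrnpa2b1 in MullerControl (-0.19) within Malat1-rich barcodes, and the other 16 moved in size. The counting intervals of those 4 ratios within Malat1-rich barcodes held 0. Leaving out the cell with the most UMIs of a gene moved none beyond its interval. With 1 library a group, variation between mice, injections, sorts and libraries is not covered. Microglia or macrophage barcodes, with 1968 and 3993 member UMIs, limit single-gene ratios there.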
